A study of Mus musculus with 12 samples.

Results

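The neurotrophic and growth factor genes described here are 9 of the 46078 genes counted in bulk RNA sequencing of mouse spinal cord: Bdnf, Ntf3, Gdnf, Cntf, Hgf, Igf1, Vegfa, Nrg1 and Fgf2. They were chosen by name, with earlier results of these data known, and all 9 were found in the table by symbol. Expression was measured in 4 groups of 3 libraries: cord with spinal cord injury (SCI) that received syngeneic mesenchymal stem cells (MSC), cord with SCI that received allogeneic MSC, cord with SCI and no cells, and non-injured cord. MSC are stromal cells that can form bone, cartilage and fat, and syngeneic means that donor and host are genetically matched. The host strain is C57BL6/cJ in every group, and no genotype, transgene or drug is named in the labels. The sources used here do not give the donor strain of the cells, the kind of injury, the interval before collection, the age or sex of the animals or which stretch of cord was sampled.

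Total counts ranged from 8705942 to 26151928 per library, with the lowest in SCI + allogeneic MSC replicate 2. Replicate numbers are given here in the order of the samples within each group and are not in the labels. Levels are given as CPM, counts scaled to a common library size. A gene is called when its Benjamini-Hochberg adjusted p from edgeR's quasi-likelihood test, over the 16527 genes that passed a filter on low counts, lies below 0.05. No label says that the 3 libraries of a group are from different mice, and the p-values then reflect only the variation among these samples, part of which may be technical. The first principal component, with 59.9% of the variance, put SCI + syngeneic MSC replicate 3 at -27.4, beside the SCI libraries at -39.0 to -29.6, while syngeneic replicates 1 and 2 lay at 12.9 and 27.2 and non-injured cord at 66.6 to 80.5. On the second component non-injured replicate 3 lay at -56.2 and the others of its group at 14.6 and 15.5. The mitochondrial share of counts was 5.61, 8.80 and 5.42% with syngeneic cells, 5.14, 5.62 and 5.38% with allogeneic cells, 6.40, 4.998 and 5.87% in SCI cord and 8.18, 7.46 and 10.9% in non-injured cord. Every non-injured library thus lay above every SCI library, and the part of this in the injury comparison was not tested. Markers of neurons, astrocytes and oligodendrocytes, the cells that define this tissue, were above 0 in every library.

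Neurotrophic factors are secreted proteins that keep neurons alive and guide the growth of their processes, each through its own receptor. Bdnf and Ntf3 encode neurotrophins that act on Trk receptor kinases, Gdnf acts through a GFRα co-receptor and the Ret kinase, and Cntf belongs to the interleukin-6 family of cytokines, which signal through gp130. Hgf, Igf1, Vegfa, Nrg1 and Fgf2 encode growth factors for wider sets of cells, among them glia, vessels and fibroblasts, and in injured cord several of them are known to be made by glia and by infiltrating cells.

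Between injured and non-injured cord the order of the 9 genes changed at its top. Levels of different genes were compared per kilobase of exon. In SCI cord the highest level was that of Fgf2, at 13.2 ± 1.27 CPM per kb (SD, n = 3), followed by Vegfa at 10.5 ± 1.24 and Igf1 at 8.96 ± 1.70. Nrg1, Bdnf and Hgf came next at 1.65 ± 0.205, 1.40 ± 0.075 and 1.06 ± 0.304 CPM per kb, and Cntf, Gdnf and Ntf3 closed the order at 0.182, 0.142 and 0.123. In non-injured cord Vegfa led at 17.3 ± 0.538 CPM per kb, ahead of Fgf2 at 2.32 ± 0.199, Nrg1 at 1.83 ± 0.462, Bdnf at 1.05 ± 0.403 and Igf1 at 0.585 ± 0.107. Ntf3, Cntf, Hgf and Gdnf were lowest there, at 0.183, 0.158, 0.126 and 0.0462 CPM per kb. Neighbours whose means lay closer than the sum of their SDs were Vegfa and Igf1, Nrg1 and Bdnf, Bdnf and Hgf, Cntf and Gdnf, and Gdnf and Ntf3 in SCI cord. In non-injured cord they were Fgf2 and Nrg1, Nrg1 and Bdnf, Bdnf and Igf1, Ntf3 and Cntf, and Cntf and Hgf.

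In SCI + syngeneic MSC cord the top of the order was Vegfa at 11.97 ± 2.10 CPM per kb, Fgf2 at 9.22 ± 4.92 and Igf1 at 4.35 ± 3.86. In SCI + allogeneic MSC cord it was Fgf2 at 12.8 ± 1.53, Igf1 at 9.42 ± 3.98 and Vegfa at 8.97 ± 1.34. In both groups the second gene lay closer to each of its neighbours than the sum of their SDs.

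**Figure D1:**
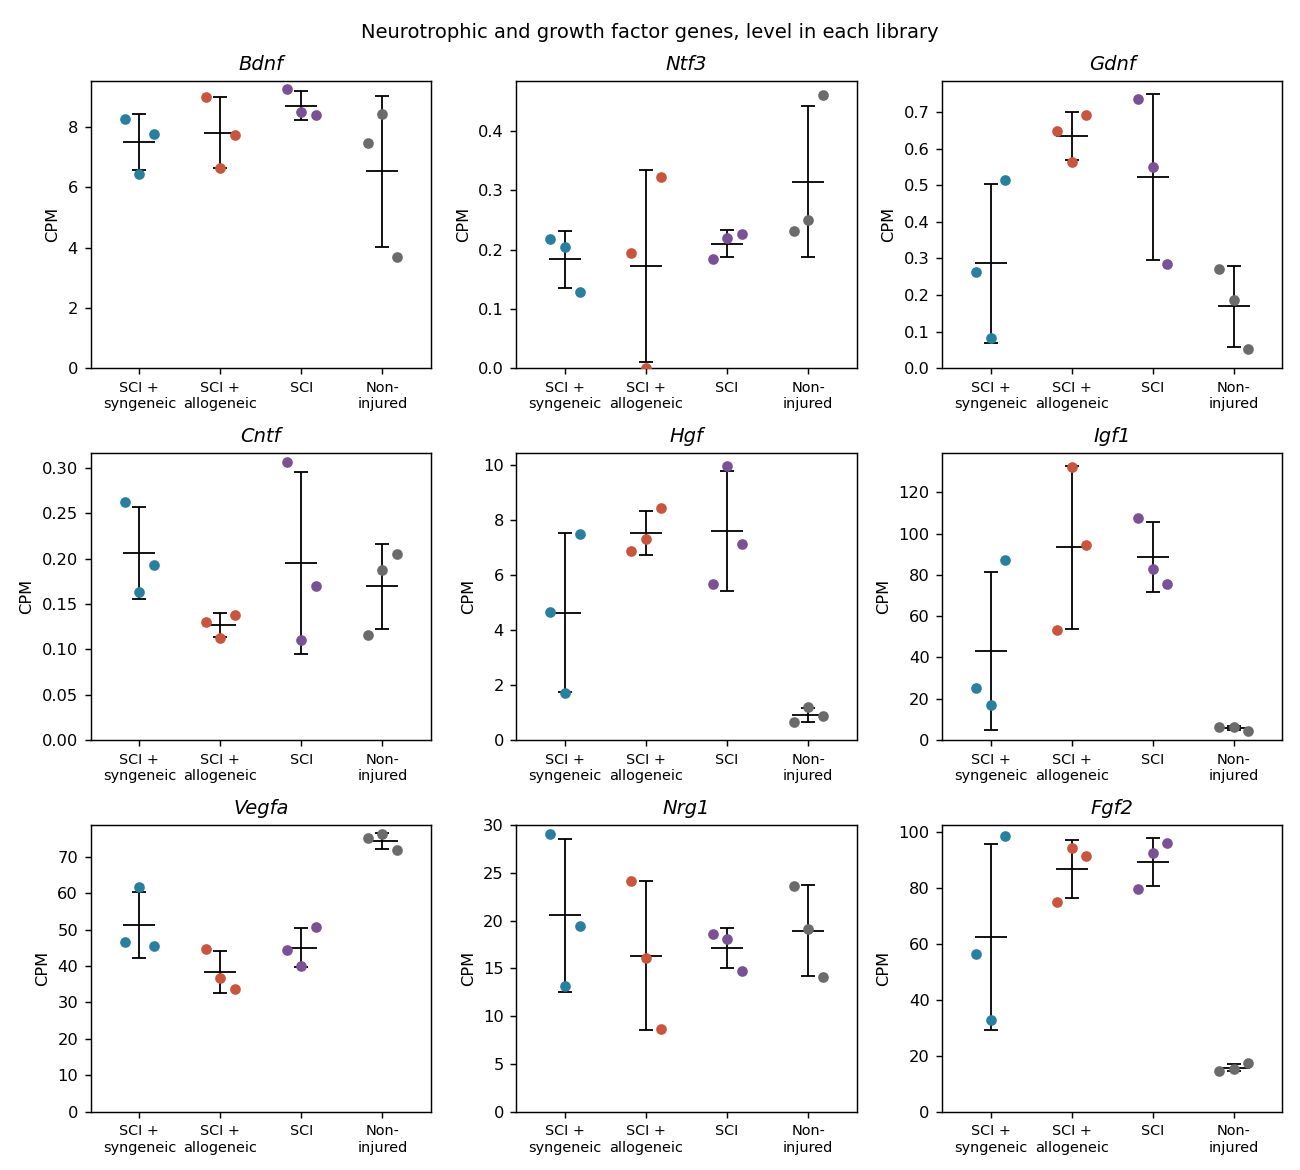
CPM of each of the 9 genes (vertical axes, linear and starting at 0) in the 4 groups (horizontal axes); each point is a library, the long line the mean and the bar the SD (n = 3). The 3 non-injured libraries lie below every other library for Hgf, Igf1 and Fgf2 and above every other library for Vegfa.

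Injury alone was compared first, SCI against non-injured cord. Of the 9 genes 7 passed the filter on low counts, and Ntf3 and Cntf did not. Of these 7, 3 rose (Igf1, Fgf2 and Hgf), 1 fell (Vegfa) and 3 were not called (Gdnf, Bdnf and Nrg1). Over all genes tested 16.6% were called higher and 9.26% lower. The median log2 fold change of the 7 genes was 1.52, against 0.008 over all genes tested. This median is the value of Gdnf alone, which was not called. Gdnf had 7, 3 and 1 counts in non-injured cord, so it passed the filter through injured libraries. Because the genes were chosen with earlier results of these data known, their distance from the values of all genes is not a test. All libraries of SCI lay above all of non-injured cord for 4 of the 7 and below for 1, where 26.3% and 21.2% of all genes did so. The 4 were Igf1, Fgf2, Hgf and the scarce Gdnf. Lower numbers of a cell type and less RNA per cell cannot be told apart in bulk tissue, and the same holds for more.

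Igf1 (ENSMUSG00000020053, GRCm38 chromosome 10, 87858265 to 87937042, plus strand) encodes insulin-like growth factor 1, a survival and growth signal that myeloid cells are known to make. Its level was 108, 82.9 and 75.6 CPM in SCI cord, against 6.38, 6.43 and 4.56 CPM in non-injured cord. Every SCI library was far above every non-injured one, and the groups did not overlap. The log2 fold change was 3.93 (SE 0.58, 95% interval 2.67 to 5.20, adjusted p = 0.00078), a 15.3-fold difference.

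Fgf2 (ENSMUSG00000037225, chromosome 3, 37348346 to 37410108, plus strand) encodes basic fibroblast growth factor, a heparin-binding mitogen for astrocytes, progenitors and fibroblasts. It stood at 79.8, 92.7 and 96.1 CPM in SCI cord, against 14.7, 15.2 and 17.3 CPM in non-injured cord. The groups did not overlap, and the libraries of each group lay close together. On the log2 scale the difference was 2.51 (SE 0.31, 95% interval 1.83 to 3.19, adjusted p = 0.000311). Fgf2 shares 640 exon bases with Nudt6 on the other strand, which had 31 to 94 counts per library where Fgf2 had 244 to 1981, and 255 with Gm43439 on the same strand, which had 0 counts in every library.

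Hgf (ENSMUSG00000028864, chromosome 5, 16553495 to 16620152, plus strand) encodes hepatocyte growth factor, the ligand of the receptor kinase Met. Its level was 5.70, 9.99 and 7.14 CPM in SCI cord, against 0.657, 1.19 and 0.872 CPM in non-injured cord. The lowest SCI library was above the highest non-injured library. Injury raised Hgf by 3.10 on the log2 scale (SE 0.47, 95% interval 2.06 to 4.13, adjusted p = 0.000978). Hgf shares 484 exon bases with the same-strand gene Gm43489, which had 0 to 6 counts per library.

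Vegfa (ENSMUSG00000023951, chromosome 17, 46016993 to 46032369, minus strand) encodes vascular endothelial growth factor A, which drives vessel growth and permeability. It was the gene of the set that fell. Its level was 44.3, 40.1 and 50.7 CPM in SCI cord, against 75.1, 76.1 and 71.7 CPM in non-injured cord, with no overlap. The log2 fold change was -0.72 (SE 0.14, 95% interval -1.04 to -0.41, adjusted p = 0.00419).

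The sequences upstream of Hgf and Vegfa are shown as examples of a gene that rose and the gene that fell. RefSeq (GRCm38.p6) lists 2 starts for each, and the 250 bases before the first listed start, read 5′ to 3′ on the strand of the gene, were searched on both strands for AP-1 (TGANTCA), STAT (TTCNNNGAA), hypoxia response core (ACGTG or GCGTG) and Sp1 (GGGCGG) letters. Matches are in capitals. The Hgf window is chr5:16553245-16553494 (plus strand) and the Vegfa window chr17:46032378-46032627 (minus strand), and neither overlaps a GENCODE M21 exon.
Hgf: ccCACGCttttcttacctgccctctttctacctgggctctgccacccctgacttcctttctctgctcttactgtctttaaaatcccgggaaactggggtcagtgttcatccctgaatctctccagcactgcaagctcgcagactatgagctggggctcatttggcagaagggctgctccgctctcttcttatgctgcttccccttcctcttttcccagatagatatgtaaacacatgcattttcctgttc
Vegfa: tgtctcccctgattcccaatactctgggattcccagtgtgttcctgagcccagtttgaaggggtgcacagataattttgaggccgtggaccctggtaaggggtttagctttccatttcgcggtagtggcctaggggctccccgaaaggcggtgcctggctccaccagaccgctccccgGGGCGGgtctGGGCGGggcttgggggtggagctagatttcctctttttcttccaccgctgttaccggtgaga
The Hgf window held 1 hypoxia response core match, on the reverse strand at bases -248 to -244 from the start, and 0 matches to the other 3 motifs. The Vegfa window held 2 Sp1 matches, at -72 to -67 and -62 to -57, and 0 matches to the other 3. Among 32851 RefSeq windows of the same length, 38.6% held the hypoxia response core, 32.7% Sp1, 7.02% STAT and 6.75% AP-1 letters. GC content was 50.8% in the Hgf window and 59.2% in the Vegfa window. A match is a string of letters and not a measured site. The windows of Igf1 and Fgf2 lie inside annotated exons and are not shown, and the RefSeq set used lists 0 starts for Nrg1.

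Gdnf, Bdnf and Nrg1 were not called after injury. Gdnf (ENSMUSG00000022144, chromosome 15, 7810846 to 7837575, plus strand) encodes glial cell line-derived neurotrophic factor, a survival factor for motor neurons. It was scarce, at 0.735, 0.549 and 0.283 CPM in SCI cord, against 0.271, 0.187 and 0.0513 CPM in non-injured cord, from 27 and 11 counts in all. The groups did not overlap, by a narrow margin between the lowest SCI and the highest non-injured library. The log2 fold change was 1.52 (SE 0.63, 95% interval 0.15 to 2.90, adjusted p = 0.0967 in edgeR).

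Bdnf (ENSMUSG00000048482, chromosome 2, 109674700 to 109727007, plus strand) encodes brain-derived neurotrophic factor. It had 9.25, 8.51 and 8.39 CPM in SCI cord, against 7.46, 8.43 and 3.69 CPM in non-injured cord. One non-injured library (replicate 3) was low and another reached the level of SCI cord, so the groups overlapped. Their log2 fold change was 0.42 (SE 0.25, 95% interval -0.13 to 0.97, adjusted p = 0.25). The summed level of oligodendrocyte markers was also apart in that library, at 79765 CPM where non-injured replicates 1 and 2 had 41770 and 33157 CPM, and the part of this in the Bdnf value was not tested. Bdnf shares 896 exon bases with the antisense gene Gm45346, and reads of the pair cannot be told apart unless the counting used strand, which is not given.

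Nrg1 (ENSMUSG00000062991, chromosome 8, 31814551 to 32884029, minus strand) encodes neuregulin 1, the axonal ligand of ErbB receptors on Schwann cells and glia. It had 18.6, 18.1 and 14.7 CPM in SCI cord, against 23.7, 19.1 and 14.1 CPM in non-injured cord. The ranges overlapped, and the log2 fold change was -0.15 (SE 0.35, 95% interval -0.92 to 0.62, adjusted p = 0.798).

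Ntf3 and Cntf were at the limit of detection. Ntf3 (ENSMUSG00000049107, chromosome 6, 126101412 to 126166910, minus strand), which encodes neurotrophin 3, had 5, 5 and 2 counts in SCI + syngeneic MSC libraries, 3, 0 and 7 in SCI + allogeneic MSC libraries, 3, 4 and 4 in SCI libraries and 6, 4 and 9 in non-injured libraries. The count of 0 in the shallowest library allows up to 0.338 CPM (3 counts), a limit that covers counting error only. Cntf (ENSMUSG00000079415, chromosome 19, 12763660 to 12765632, minus strand), which encodes ciliary neurotrophic factor, had 6, 4 and 3 counts, 2, 1 and 3 counts, 5, 2 and 3 counts and 3, 3 and 4 counts in the same 4 groups. Differences of either gene were not detectable at this depth. Cntf also shares 847 of its 1073 exon bases with Zfp91 on the same strand, which had 1822 to 5657 counts per library, so a Cntf count depends on how shared reads were assigned.

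Markers of several cell types moved with the injury comparison. All 12 markers of microglia and macrophages were called higher, and their summed level was 2492, 2958 and 2276 CPM in SCI cord, against 389, 363 and 614 CPM in non-injured cord. All 9 fibroblast markers were called higher, with sums of 2063, 1631 and 1473 CPM in SCI cord and 198, 300.0 and 330.1 CPM in non-injured cord. Of 7 markers each, 5 astrocyte markers were called higher, while 4 neuron, 5 motor neuron and 5 oligodendrocyte markers were called lower. Of 7 endothelial markers 1 was called higher, and of 9 Schwann cell markers 1. In this comparison 16.6% of all genes tested were called higher and 9.26% lower. The endothelial and Schwann cell counts did not exceed the share called higher. Schwann cell marker sums differed within non-injured cord, at 232, 1125 and 1797 CPM, where SCI cord had 789, 924 and 867 CPM. The part of the marker shifts and of this spread in the changes of Igf1, Fgf2, Hgf, Vegfa and the list genes below was not tested.

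**Figure D2:**
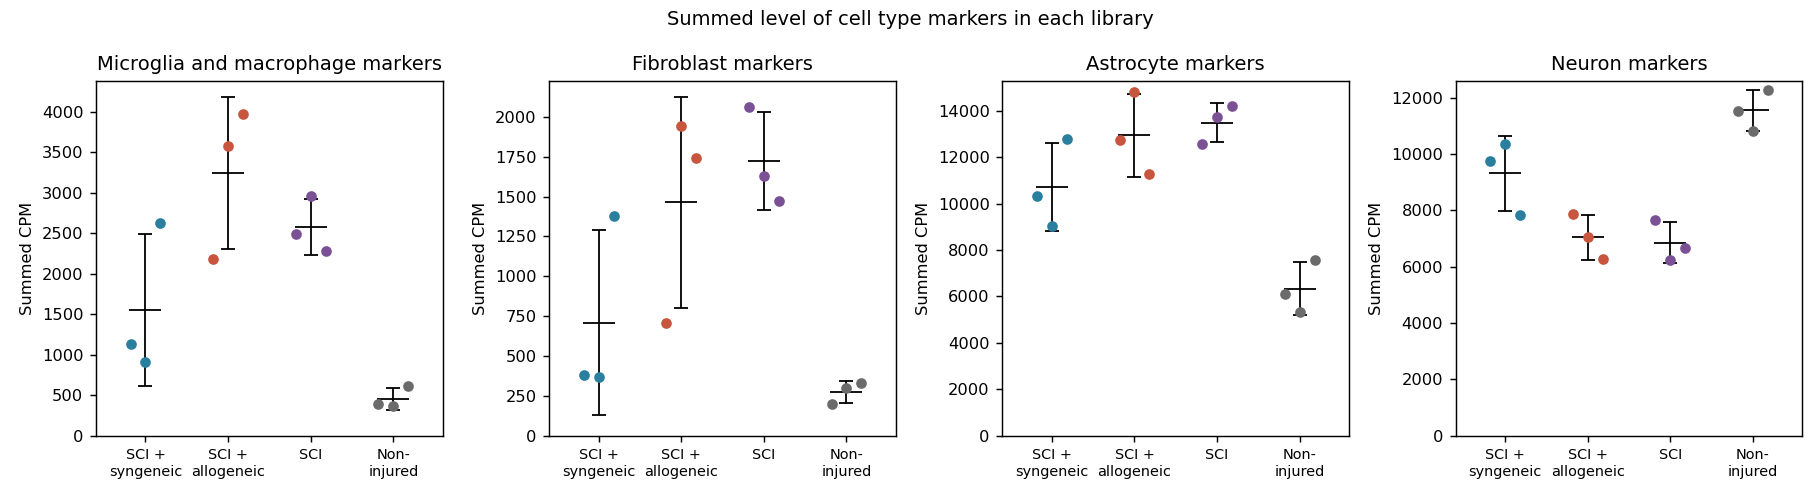
Summed CPM (vertical axes, linear and starting at 0) of the markers of 4 cell types in the 4 groups; each point is a library, the long line the mean and the bar the SD (n = 3). SCI + syngeneic MSC replicate 3 lies at 2624 CPM for microglia and macrophage markers, within the SCI range, and replicates 1 and 2 lie at 1131 and 905 CPM.

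The receptors, processing enzymes, inhibitors and related ligands of the 9 factors were counted in 8 lists, and genes of the response to low oxygen in another. The 9 lists together hold 125 genes, of which 114 were tested. After injury 40 rose and 7 fell, where 16.6% of all genes tested were called higher and 9.26% lower. The median log2 fold change over the 114 was 0.29, against 0.008 over all genes tested. The lists too were chosen with earlier results of these data known, so this distance is not a test. The counts of each list follow beside its median, with no test between lists.

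The CNTF list, which holds cytokines and receptors of the gp130 family, had 9 genes higher and 1 lower of 11 tested (median log2 fold change 2.11). Socs3, the feedback inhibitor of this pathway, averaged 32.4 ± 16.0 CPM in SCI cord and 2.59 ± 0.588 CPM in non-injured cord, a log2 fold change of 3.66 (SE 0.41, adjusted p = 0.000195). The interleukin-6 receptor gene Il6ra (log2 fold change 2.11) and the ligand gene Clcf1 (2.26) rose too. Cntfr, the receptor subunit that CNTF itself needs, was the gene that fell, to 79.5 ± 6.71 CPM in SCI cord against 98.5 ± 3.07 CPM in non-injured cord (log2 fold change -0.31, adjusted p = 0.0229). Lifr, the subunit it signals with, was at -0.28 (adjusted p = 0.0783).

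The HGF list had 5 higher and 0 lower of 8 tested (median 2.37). Met, the HGF receptor, rose with its ligand, to 18.1, 26.2 and 24.4 CPM in SCI cord against 4.10, 4.93 and 6.41 CPM in non-injured cord (log2 fold change 2.16, SE 0.27, adjusted p = 0.000315). Spint1, an inhibitor of HGF-activating proteases, rose by 2.61 and Plau, the urokinase protease gene, by 3.69 on the log2 scale.

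Among the IGF genes 6 were higher and 0 lower of 17 tested (median 0.78), and those that rose were 4 binding protein genes, Igf2 and Igf2r, the receptor that clears IGF2. Igfbpl1, an IGF binding protein-like gene, averaged 13.5 ± 1.61 CPM in SCI cord and 0.135 ± 0.126 CPM in non-injured cord (log2 fold change 6.62, SE 0.56, adjusted p = 8.75e-05). It had 706 counts in all in SCI cord and 8 in non-injured cord, so the size of its fold change rests on few reference counts. Igfbp5 rose by 2.21 and Igf2, which shares 3596 exon bases with a same-strand gene, by 3.73 (adjusted p = 0.0104, and 0.0503 with no filter on low counts). Igf1r, the receptor of IGF1, had 26.5 ± 2.11 CPM in SCI cord and 19.8 ± 2.05 CPM in non-injured cord and was not called (log2 fold change 0.42, adjusted p = 0.276).

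In the neurotrophin list 4 of 13 tested genes were higher and 0 lower (median 0.27). Ngfr, the p75 receptor that binds all neurotrophins and their precursors, had 9.19, 35.4 and 6.92 CPM in SCI cord, against 1.74, 1.94 and 1.38 CPM in non-injured cord. One SCI library was well above the rest, and the groups did not overlap (log2 fold change 3.35, SE 0.76, adjusted p = 0.00881). Furin and Plat, proteases that act in the cleavage of pro-neurotrophins, rose by 0.88 and 1.12. The BDNF receptor gene Ntrk2 stood at 0.52 (adjusted p = 0.0776) and the NT-3 receptor gene Ntrk3 at 0.12 (adjusted p = 0.76).

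In the GDNF list 0 of 6 tested genes were higher and 1 was lower (median 0.23). Gfra4, a co-receptor of the family, fell by 0.55, a call that was lost when library totals were the scaling (log2 fold change -0.49, adjusted p = 0.0619) and when any 1 of 5 of the 6 libraries was left out. The GDNF receptor genes Ret and Gfra1 both stood at 0.28, with adjusted p = 0.134 and 0.148.

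Of the VEGF genes 3 were higher and 1 lower of 12 tested (median -0.03). The co-receptors Nrp1 and Nrp2 rose by 1.32 and 0.86 and Angpt1, a ligand of the Tie2 receptor that stabilises vessels, by 1.58. The main VEGF receptor gene Kdr averaged 25.1 ± 7.65 CPM in SCI cord and 29.1 ± 2.93 CPM in non-injured cord (log2 fold change -0.21, adjusted p = 0.57). The hypoxia list holds genes known to be induced by low oxygen, as Vegfa is, and also the regulator genes Hif1a and Epas1. Of its 13 tested genes 4 were higher and 1 lower (median 0.06). Hk2 rose by 2.83 and Ldha by 0.74, both glycolytic enzymes, while Bnip3, a mitophagy gene, fell by 0.74.

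The neuregulin list had 6 higher and 1 lower of 14 tested (median 0.38). Those with the smallest p were Egfr (0.95), Hbegf (1.39) and Erbb2 (1.58), receptors and a ligand of the ErbB family. Erbb3 and Erbb4, the receptors that bind NRG1, were at -0.19 (adjusted p = 0.55) and 0.32 (adjusted p = 0.41). In the FGF list 3 were higher and 2 lower of 20 tested (median 0.04). Fgf9, another ligand, and Etv4, a transcription factor that FGF signalling induces, fell by 0.86 and 0.81, and the receptor gene Fgfr4 rose by 2.61, at 1.03 ± 0.629 CPM in SCI cord and 0.17 ± 0.122 CPM in non-injured cord. The Fgfr4 call was lost without SCI replicate 2 (adjusted p = 0.0519) and without non-injured replicate 1 (adjusted p = 0.0567). Fgfr1, a main receptor of FGF2, stood at 0.37 (adjusted p = 0.0725).

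**Figure D3:**
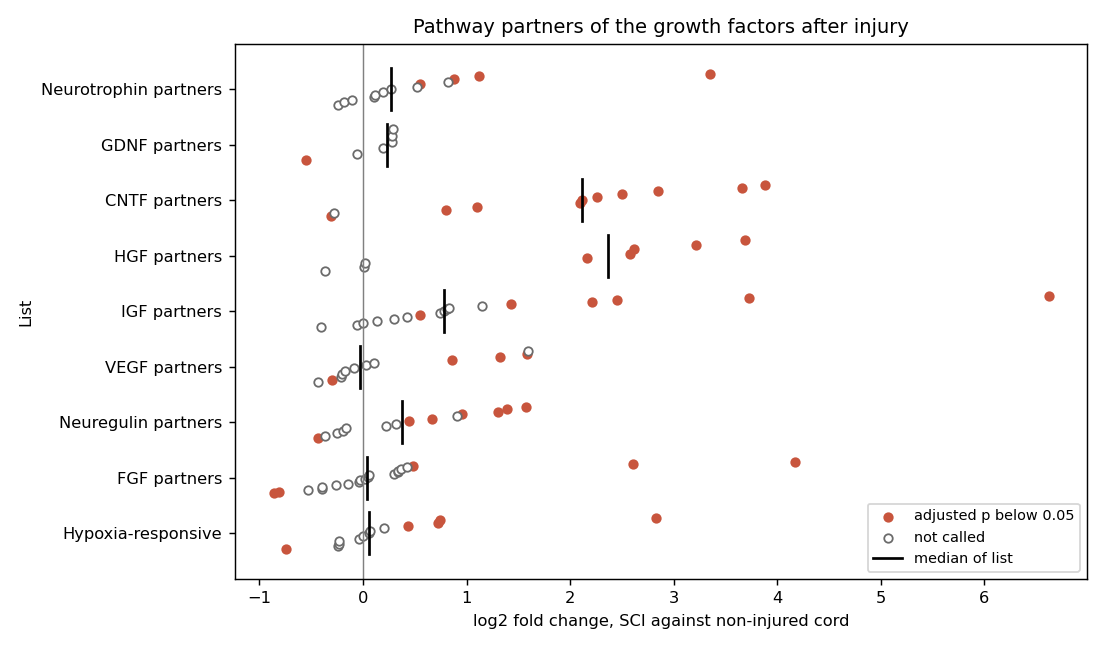
Log2 fold change of SCI against non-injured cord (horizontal axis) of the genes of the 9 lists (vertical axis); each point is a gene, filled where its adjusted p lies below 0.05, and the upright line is the median of the list. Most filled points of the CNTF and HGF lists lie above 0.8, and the medians of the VEGF, FGF and hypoxia lists lie near 0.

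Transplantation of syngeneic MSC was compared with SCI alone. Of the 7 genes tested 0 were called higher and 0 lower, and 0 had an unadjusted p under 0.05. Over all genes 0.00605% were called higher and 0.0303% lower. Igf1 had 25.3, 17.0 and 87.0 CPM with syngeneic cells, against 108, 82.9 and 75.6 CPM in SCI cord. Syngeneic replicates 1 and 2 lay below every SCI library, and replicate 3 lay among them. The log2 fold change was -1.05 (SE 0.50, 95% interval -2.15 to 0.05, adjusted p = 0.384 in edgeR).

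Fgf2 and Hgf had the same arrangement in part. Fgf2 stood at 56.3, 32.7 and 98.5 CPM with syngeneic cells, against 79.8, 92.7 and 96.1 CPM in SCI cord (log2 fold change -0.52, 95% interval -1.16 to 0.11, adjusted p = 0.434). Hgf stood at 4.68, 1.72 and 7.52 CPM with syngeneic cells, against 5.70, 9.99 and 7.14 CPM in SCI cord (log2 fold change -0.74, 95% interval -1.63 to 0.16, adjusted p = 0.432). For both genes syngeneic replicates 1 and 2 were below the SCI range and replicate 3 was not.

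The other 4 genes were not called either. Bdnf had 8.26, 6.45 and 7.77 CPM with syngeneic cells, each below the 3 SCI libraries, as was so for 11.5% of all genes tested, with a log2 fold change of -0.22 (adjusted p = 0.741). Vegfa had 46.7, 61.7 and 45.5 CPM with syngeneic cells and overlapped with SCI cord (log2 fold change 0.19, 95% interval -0.12 to 0.50, adjusted p = 0.577). Gdnf, at 0.262, 0.0817 and 0.514 CPM with syngeneic cells, gave -0.96 (95% interval -2.25 to 0.33), and Nrg1, at 29.0, 13.2 and 19.4 CPM, gave 0.26 (95% interval -0.51 to 1.04).

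Syngeneic replicate 3 decides part of this comparison. Without it Igf1 was called lower with syngeneic cells than in SCI cord (log2 fold change -2.11, adjusted p = 0.0173), and so was Fgf2 (-1.04, adjusted p = 0.0197), while Hgf stood at -1.29 (adjusted p = 0.0824). The share of all genes called lower in that fit was 4.76%. The marker sums of that library also differed from those of replicates 1 and 2: microglia and macrophage markers summed to 1131, 905 and 2624 CPM in syngeneic replicates 1, 2 and 3, and fibroblast markers to 380.1, 367 and 1379 CPM. Whether these sums bear on the values of Igf1, Fgf2 and Hgf was not tested, and no label marks the library as different.

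Of the 114 tested genes in the 9 lists 0 were called between SCI + syngeneic MSC and SCI cord. This depends on the fit. With DESeq2 5 were called lower, where 98 of all genes were. Without syngeneic replicate 3 18 were called lower, where 4.76% of all genes were. An unadjusted p under 0.05 was found for 31 of the 114, and the share of all genes under that limit is not given here. The smallest p in the CNTF list were those of Socs3, at 7.58 ± 3.44 CPM with syngeneic cells and 32.4 ± 16.0 CPM in SCI cord (log2 fold change -2.11, SE 0.37, adjusted p = 0.107), and of Lif, a related cytokine gene, at 0.973 ± 0.206 and 4.18 ± 2.47 CPM (log2 fold change -2.11, adjusted p = 0.155). In the FGF list Spry1, an inhibitor of receptor kinase signalling, stood at -0.68 (adjusted p = 0.223), and in the neuregulin list Hbegf stood at -0.94 (adjusted p = 0.278). Met, the HGF receptor gene, stood at -0.56 (adjusted p = 0.368). For Socs3, Lif, Spry1 and Hbegf every syngeneic library lay below every SCI library, as was so for 11.5% of all genes tested. The smallest p of the VEGF and hypoxia lists belonged to genes with higher levels: Pgf, a VEGF-family ligand gene, at 14.3 ± 2.43 CPM with syngeneic cells and 9.57 ± 0.529 CPM in SCI cord (log2 fold change 0.58, adjusted p = 0.314), and Bnip3, at 128 ± 19.0 and 92.2 ± 5.70 CPM (0.47, adjusted p = 0.312). For both every syngeneic library lay above every SCI library, as was so for 12.2% of all genes tested.

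Transplantation of allogeneic MSC was compared with SCI alone in the same way. Again 0 of the 7 genes were called higher and 0 lower, 0 had an unadjusted p under 0.05, and over all genes 0.169% were called higher and 0.0182% lower. Igf1 had 53.2, 132 and 94.7 CPM with allogeneic cells (log2 fold change 0.07, 95% interval -1.02 to 1.16). Fgf2 had 75.0, 94.3 and 91.4 CPM (log2 fold change -0.04, 95% interval -0.68 to 0.59) and Hgf 6.87, 7.33 and 8.44 CPM (-0.01, 95% interval -0.90 to 0.88). All 3 genes overlapped with SCI cord, and the intervals allow differences of of up to 1.16 on the log2 scale for Igf1.

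Vegfa had 44.8, 36.8 and 33.7 CPM with allogeneic cells, against 44.3, 40.1 and 50.7 CPM in SCI cord, a log2 fold change of -0.23 (SE 0.14, 95% interval -0.54 to 0.09). Gdnf had 0.649, 0.564 and 0.692 CPM (log2 fold change 0.31, SE 0.54), Bdnf 9.01, 6.66 and 7.75 CPM (-0.15, 95% interval -0.70 to 0.40) and Nrg1 24.2, 16.1 and 8.63 CPM (-0.08, 95% interval -0.86 to 0.71). In all 7 genes the groups overlapped, where 4.2% of all genes had every allogeneic library higher and 3.29% every one lower, and the adjusted p of each of the 7 genes was 1.00 to 3 digits. Of the 114 list genes 0 were called and 5 had an unadjusted p under 0.05, a limit for which the share of all genes is not given here. Lif again had the smallest p of the CNTF list, at 1.29 ± 0.335 CPM with allogeneic cells and 4.18 ± 2.47 CPM in SCI cord (log2 fold change -1.74, SE 0.43, adjusted p = 0.335).

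The title of the series sets syngeneic against allogeneic cells, and this comparison also tests whether the effects of the transplants differed. Of the 7 genes 0 were called, where 0.0182% of all genes were called higher and 0.593% lower (3 and 98 genes). The share of all genes with an unadjusted p under 0.05 is not given here, and 2 of the 7 genes had such a p. These were Vegfa, higher in every library with syngeneic cells than in any with allogeneic cells (log2 fold change 0.42, SE 0.14, 95% interval 0.10 to 0.73, adjusted p = 0.258 in edgeR), and Igf1 (-1.12, SE 0.51, 95% interval -2.23 to -0.01, adjusted p = 0.342 in edgeR). Gdnf was lower in every library with syngeneic cells (-1.27, SE 0.59, 95% interval -2.55 to 0.01, adjusted p = 0.352). Non-overlap of this kind was seen in 5.19% of all genes for higher and 7.03% for lower. Hgf stood at -0.73, Fgf2 at -0.48, Nrg1 at 0.34 and Bdnf at -0.07, each with overlapping groups.

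Leaving out syngeneic replicate 3 brought 2 calls here as well, Igf1 at -2.19 (adjusted p = 0.00756) and Fgf2 at -1.01 (adjusted p = 0.0139), with 6.73% of all genes then called lower. Of the list genes 0 of 114 were called in the main fit. With DESeq2 2 were called lower, where 334 of all genes were, and 12 were called lower in the fit without syngeneic replicate 3. An unadjusted p under 0.05 was found for 22 in the main fit, and the share of all genes under that limit is not given here. The smallest p were those of the CNTF-family ligand gene Clcf1, at 2.53 ± 0.452 CPM with syngeneic and 5.53 ± 1.41 CPM with allogeneic cells (log2 fold change -1.12, adjusted p = 0.151), and of St14, the gene of the HGF-activating protease matriptase, at 5.26 ± 2.53 and 11.2 ± 2.54 CPM (-1.09, adjusted p = 0.205). In both every syngeneic library was lower than every allogeneic one, as was so for 7.03% of all genes tested. Microglia and macrophage markers summed to 905 to 2624 CPM with syngeneic cells, against 2183 to 3976 CPM with allogeneic cells. Fibroblast markers summed to 367 to 1379 CPM with syngeneic cells, against 709 to 1940.5 CPM with allogeneic cells. Of the 12 and 9 markers 0 were called, as were 0 of 7 markers of mesenchymal stromal cells in either transplanted group against SCI cord, and their part in the differences of the growth factor genes was not tested.

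**Figure D4:**
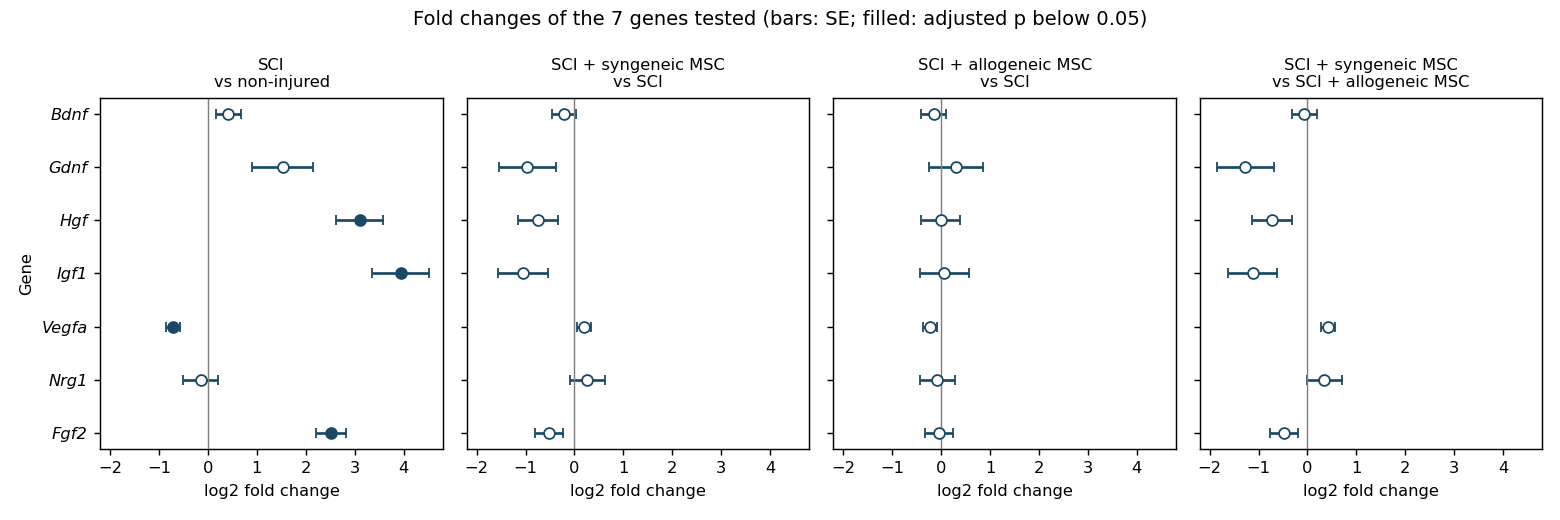
Log2 fold change (horizontal axes) of the 7 genes tested (vertical axis) in 4 comparisons; bars are the SE and points are filled where the adjusted p lies below 0.05. Igf1, Fgf2, Hgf and Vegfa are filled for SCI against non-injured cord, and no point is filled in the 3 comparisons that involve transplanted cells.

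Both transplanted groups were then set against non-injured cord, which is shared with the injury comparison, so the results are not independent of it. With syngeneic cells 3 of 7 genes were higher (Igf1, Fgf2 and Hgf) and 0 lower, where 4.92% of all genes were called higher and 0.424% lower. The log2 fold changes were 2.88 for Igf1 (SE 0.56, adjusted p = 0.0118), 1.98 for Fgf2 (SE 0.31, adjusted p = 0.0033) and 2.36 for Hgf (SE 0.47, adjusted p = 0.0141). Vegfa was lower in every library with syngeneic cells than in non-injured cord, at -0.53 (SE 0.14), with an adjusted p of 0.0529. No overlap was seen for the 3 genes called higher and for Vegfa, where 13.7% of all genes had every library higher and 7.18% every one lower. These calls depend on the fit. With only the compared libraries 0 of the 7 genes were called (1.03% of all genes higher and 0.0246% lower), with limma-voom 1 (3.45% higher and 0.411% lower) and with DESeq2 4 (7.33% higher and 1.19% lower).

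With allogeneic cells 3 were higher and 1 lower, where 16.7% of all genes were called higher and 8.17% lower. Igf1 rose by 4.004 (SE 0.58, adjusted p = 0.000568), Hgf by 3.09 (SE 0.47, adjusted p = 0.000815) and Fgf2 by 2.46 (SE 0.31, adjusted p = 0.000236) on the log2 scale. Vegfa fell by 0.95 (SE 0.14, adjusted p = 0.00074). Gdnf stood at 1.83 (SE 0.62, adjusted p = 0.0508) with every allogeneic library above every non-injured one. Such separation was found for 4 of the 7 genes higher and 1 lower, and for 21.1% and 15.9% of all genes. Bdnf stood at 0.20 with syngeneic and 0.27 with allogeneic cells against non-injured cord, and without non-injured replicate 3 at -0.12 and -0.02. In the lists 16 of 114 genes were higher and 1 (Etv4) lower with syngeneic cells. In the main fit 813 of all genes were called higher. The 16 became 4 with only the compared libraries (168 of all genes) and 8 without syngeneic replicate 3 (428). They became 6 and 8 without non-injured replicate 1 or 2 (341 and 426). Counts rose to 18 with library totals (971), 21 with DESeq2 (1212) and 23 without syngeneic replicate 2 (1371). Etv4 had an adjusted p of 0.0572 with only the compared libraries. With allogeneic cells 37 were higher and 6 lower. A test for any difference among the 4 groups called 4 of the 7 genes (Fgf2, Igf1, Vegfa and Hgf, adjusted p = 0.00114 to 0.00375) and 18.3% of all genes.

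The genes called after injury were called for a difference between groups of these same 12 libraries, so correlations among them in part restate those calls. As a description over libraries that share 4 groups, Pearson's r of log2 CPM was 0.98 for Hgf and Fgf2, 0.97 for Igf1 and Fgf2 and 0.95 for Hgf and Igf1, and -0.93 for Vegfa with each of these 3. Gdnf had 0.83 with Igf1 and -0.80 with Vegfa, while Nrg1 stayed between -0.18 and 0.34 with the other 6 genes. The tested genes with the patterns most like each gene, among those with a mean log2 CPM of at least 1, were named by r over the same 12 libraries. For Igf1 they were Il13ra1 (0.99), Cd300a (0.99) and Colec12 (0.99), and for Fgf2 Fcrls (0.99), Runx1 (0.99) and Serpina3n (0.99). For Hgf they were Add3, Plxnb2 and Agtrap, each at 0.99. Vegfa was most like Car7 (0.97), Mirg (0.96) and Sec61a2 (0.96), Bdnf like Kcnf1 (0.98), Hpcal4 (0.98) and Vopp1 (0.97), and Nrg1 like Rab11fip4 (0.96), Zfp738 (0.95) and Amer1 (0.95).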

How the data were processed

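Poly(A)-selected RNA of mouse spinal cord was sequenced in 12 libraries of 4 groups, as grouped by the labels. The authors deposited raw read counts for 46078 Ensembl genes. Tools listed in the submitters' processing notes, without their roles, are STAR 2.5.1, featureCounts 1.5.1, StringTie 1.3.3, Trim Galore 0.4.1, FastQC 0.11.5 and Picard, and the build listed is GRCm38. The annotation release, strand setting and handling of shared reads are not stated there, so genes with overlapping exons are uncertain. Besides those named in the report this holds for Adam17, Angpt1, Bace1, Bnip3, Erbb2, Fgfr1, Furin, Gfra1, Il6ra and Spry1 (other strand) and Clcf1, Gfra4 and Nrp1 (same strand).

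From these counts CPM (TMM-scaled totals) and log2 CPM (prior count 2) were computed. Genes were kept with filterByExpr (minimum count 10, minimum total 15), which left 16527. The test was edgeR 4.0.16 in R 4.3.3 (glmQLFit and glmQLFTest, robust) with 1 mean per group over the 12 libraries, for 6 comparisons and for any difference among groups. Adjustment was by Benjamini-Hochberg over all genes tested, threshold 0.05. The scripts were tested on simulated counts. Fold changes are log2 with SE, and levels mean ± SD (n = 3). Counts of 8705942 to 26151928 per library limit precision for genes under 1 CPM. Coordinates and exon lengths are from GENCODE M21 on GRCm38.

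The genes and lists were chosen with earlier results of these data known. Named list genes are those with the smallest p per list and comparison (up to 3 called, otherwise up to 2, not all printed); Cntfr, Lifr, Igf1r, Ntrk2, Ntrk3, Ret, Gfra1, Kdr, Erbb3, Erbb4 and Fgfr1, and Met after syngeneic cells, are given as receptors of the factors. Ntf5, Artn, Pspn, Gfra3, Il6, Il11, Hgfac, Igfals, Areg, Ereg and Ca9 were not tested. Alternatives were DESeq2 size factors, library totals, no filter, a stricter filter, DESeq2 1.42.0, limma-voom (limma 3.58.1), a fit of the compared groups alone and leaving out each library.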

Additional observations from a re-analysis of the deposited data

Results flagged for a closer look

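Vegfa and Gdnf were flagged by a rule on the mean of SCI cord. Libraries with syngeneic cells all lay on the same side of it, and those with allogeneic cells all on the other side. The share of all genes that meet this rule is not given here. Some libraries lay close to the mean, as at 45.5 and 44.8 CPM for Vegfa and 0.514 CPM for Gdnf. Vegfa had 46.7, 61.7 and 45.5 CPM with syngeneic cells and 44.8, 36.8 and 33.7 CPM with allogeneic cells, around a mean of 45.0 CPM in SCI cord. The difference between the transplanted groups was 0.42 on the log2 scale and was not called (adjusted p = 0.258 in edgeR). Gdnf had 0.262, 0.0817 and 0.514 CPM with syngeneic cells and 0.649, 0.564 and 0.692 CPM with allogeneic cells, around a mean of 0.523 CPM in SCI cord. Its difference was -1.27 and was not called (adjusted p = 0.352 in edgeR). The counts behind it are few, 16 with syngeneic and 30 with allogeneic cells in all.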

How the results depend on the processing

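In SCI against non-injured cord 4 of the 9 genes were called under each of the 7 settings other than leaving out a library, and 4 in each fit without 1 library. Of all genes 3788 to 4864 were called in those settings and 2336 to 3974 without 1 library. With allogeneic cells against SCI cord 0 were called in each fit, and against non-injured cord 4 or 5 (Gdnf was the fifth, with library totals and limma-voom). Calls over all genes were 0 to 71 against SCI cord, with 0 in each fit without 1 SCI library, and 2613 to 4669 against non-injured cord. The syngeneic comparisons moved more. Against non-injured cord the 3 calls became 1 with limma-voom, 0 with the compared groups alone, 4 with DESeq2 and 1 to 4 without 1 library. All-gene calls moved too, from 883 to 639, 172, 1409 and 358 to 1752 in the same order. Against SCI cord and against allogeneic cells the count was 0 to 2 without 1 library (2 without syngeneic replicate 3), and the cause was not tested. In those fits 0 to 866 of all genes were called against SCI cord and 24 to 1178 against allogeneic cells, the most without syngeneic replicate 3.

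Signs changed for small differences. For allogeneic cells against SCI cord Hgf stood at 0.00109 with DESeq2 size factors, 0.000596 with DESeq2 and 0.0312 with limma-voom, and Igf1 at -0.00676 with limma-voom. Without 1 library the same comparison ranged from -0.18 to 0.24 for Hgf, -0.26 to 0.35 for Igf1, -0.12 to 0.053 for Fgf2 and -0.50 to 0.25 for Nrg1. Nrg1 ranged from -0.34 to 0.0456 for SCI against non-injured cord, -0.0755 to 0.50 for syngeneic cells against SCI, -0.0114 to 0.76 for syngeneic against allogeneic cells, -0.22 to 0.35 for syngeneic cells against non-injured cord and -0.65 to 0.10 for allogeneic cells against non-injured cord. Bdnf ranged from -0.16 to 0.0473 for syngeneic against allogeneic cells, -0.12 to 0.42 for syngeneic cells against non-injured cord and -0.0223 to 0.48 for allogeneic cells against non-injured cord. Gdnf ranged from -0.0855 to 1.17 for syngeneic cells against non-injured cord, and had no value where a filter removed it. Settings for the lists were added after seeing the data: after injury the 6 IGF genes called higher became 2 with no filter and 13 with the compared groups alone, and the 3 FGF genes 1 with no filter. Of all genes 2736 were called higher after injury in the main fit, 2302 with no filter and 2923 with the compared groups alone. The 7 list genes called lower after injury became 3 with library totals, where the 1530 of all genes called lower became 1089. No paired analysis was possible because the labels give no replicate numbers.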
